A study of Mus musculus with 8 samples.

Results

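The carboxylesterases described here are 10 mouse genes, Ces1b, Ces1c, Ces1d, Ces1e, Ces1f, Ces1g, Ces2a, Ces2c, Ces2e and Ces3a. They were picked by gene symbol from the 15210 genes in the deposited table, which lists 17 Ces genes in all. All 10 were found. Each had a value of at least 1 in at least 4 of the 8 libraries, so all 10 were among the 12008 genes tested.

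Liver RNA came from 8 female F1-TKm30 mice. The line has a NOG background and carries cDNA of HSVtk mutant clone 30 (a herpes simplex virus thymidine kinase) under the mouse transthyretin enhancer/promoter, in control and treated animals alike. The 4 control mice received 0% and the 4 treated mice 0.05% of MOCA, 4,4'-Methylenebis(2-chlorobenzenamine), an aromatic amine used to cure polyurethane, over 4 weeks. The series gives the ages as 17 or 21 weeks without saying which mouse had which age, the treatment label names C57BL where the strain label names F1-TKm30, and no source used here gives the route. Mice are called control 1 to 4 and MOCA 1 to 4 after the numbers in their labels.

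Carboxylesterases are serine hydrolases that cut ester and amide bonds in drugs, pesticides and lipids. Most are made by hepatocytes and stay in the lumen of the endoplasmic reticulum, where a short signal at the end of the protein returns them from the Golgi, while a rodent plasma esterase leaves the cell. Some Ces1 enzymes act on stored triglyceride during the assembly of very low density lipoprotein, and several Ces genes are known to respond to activators of the nuclear receptors CAR and PXR.

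All 10 genes lie on chromosome 8 (mm10), in a pair of clusters. The first cluster (chr8:93020214-93535879, 515.666 kb) holds 9 annotated Ces genes, among them the 6 Ces1 genes described here, all on the minus strand. The second (chr8:104734003-105150109, 416.107 kb) holds 11, among them Ces2a, Ces2c, Ces2e and Ces3a, all on the plus strand. The ends of the coding sequences are shown because they set 2 of the genes apart from the other 8. Each line gives the last 30 coding bases of the longest protein-coding transcript in GENCODE M21, 5′ to 3′, with the last 4 codons before the stop codon in capitals.
Ces1b: gaccctactgagcacAGAGAACACAAAtga
Ces1c: gaccctactgaacacACAGAACACAAAtga
Ces1d: ccatcccacagggaaCATGTTGAGCTCtga
Ces1e: caactgccgacagaaCACACTGAGCTGtga
Ces1f: caaccccagccatacCACAATGAGCTGtga
Ces1g: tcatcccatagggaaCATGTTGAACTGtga
Ces2a: ggttctcaggacaagCATGCAGAGCTGtag
Ces2c: gcttctcaggacaagCACAGGGAGCTTtag
Ces2e: gggtctcaggagaggCACAAAGAGTTGtag
Ces3a: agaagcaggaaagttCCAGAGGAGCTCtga

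The last 2 codons before the stop were CACAAA in Ces1b and Ces1c. In the other 8 genes the codon before the last was GAG or GAA. Coding sequences were 1665 to 1716 bases long, stop codon included, and identity between any 2 of the 10 ran from 64.5% to 91.2%. Ces1b and Ces1c were the closest pair (91.2%). Outside the 10, Ces3a was 95.3% identical to Ces3b, and Ces2c was 92.1% identical to Ces2b. Reads from such copies can be split wrongly between genes, so the share of every transcript's 50-base windows that also occur exactly in another listed Ces transcript was counted. It was 40.2% for Ces2c (38.2% with the pseudogene Ces2d-ps alone), 30.8% for Ces3a (with Ces3b), 13.4% for Ces1c and 10.8% for Ces1b. For the remaining 6 it was 0.533% to 3.36%. Values of Ces2c, Ces3a, Ces1b and Ces1c are therefore less certain. The shares count sequence windows and not reads, and the part of wrongly split reads in these values was not tested.

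Values are TMM-scaled CPM, reads per gene scaled to library size, where 1 read was worth 0.0581 to 0.0648. Libraries held 15024945 to 17101844 reads, and each MOCA library was shallower than each control library. Hepatocyte markers had the highest sum of the marker lists. All 12 of 12 were listed and held 10.7% to 12.9% of a library's summed values. Their sum was 116568 to 138299 in control and 101766 to 115930 in MOCA mice, with a narrow gap and no overlap. Alb alone did overlap (60488.5 to 75230.9 and 57169.5 to 66296.5). The sum without Alb did not (53463.2 to 63068.1 and 44596.4 to 52925.5). Both sums hold Trf, which was 18671 to 23039 in control and 14760 to 17397 in MOCA mice. The gap of Trf is wider than that of either sum, so these sums do not show that the other markers separated. The summed values of 7 bile duct markers were 42.2 to 51.1 and 37.7 to 57.3. Those of 7 macrophage markers were 282 to 337 and 284 to 388, and those of 7 endothelial markers 378 to 443 and 369 to 384. For 8 stellate cell markers the sums were 464 to 514 in control and 384 to 486 in MOCA mice. Of 8 adipocyte and intestine markers 4 were listed, not among them Adipoq and Plin1, and their sums were 1112 to 1652 and 1219 to 1773. Most of these sums was Car3 (1100 ± 198 in control, 1276 ± 301 in MOCA). Which cells these reads came from was not tested, so these sums are not a measure of fat or gut tissue. Over these marker lists 0 of 42 tested genes were called by limma and 0 by edgeR (8 had an unadjusted p under 0.05, and DESeq2 called 3). Over all tested genes limma called 0.666%, edgeR 0.675% and DESeq2 3.61%. An unadjusted p under 0.05 was found for 17.5% of all tested genes, and groups without overlap for 10.5%. The same shares are the background for the other lists and the neighbouring genes below. The smallest p were those of endothelial Stab2 (154 ± 14.6 in control, 129 ± 1.98 in MOCA), stellate Reln (247 ± 21.3 and 201 ± 11.1) and hepatocyte Serpina1a (3656 ± 416 and 2787 ± 400.0), each lower in all 4 MOCA mice than in any control. These genes do not stand for their whole lists. Among 8 stellate markers the log2 fold change was above 0 in 4, with Acta2 at 0.62 (limma adjusted p = 0.181), and below 0 in 4. It was above 0 in 2 and below 0 in 5 of 7 endothelial markers. Among 12 hepatocyte markers it was above 0 in 2 and below 0 in 10. In whole liver, fewer cells of a type and less RNA per cell cannot be told apart.

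The 10 genes together took 0.740% to 0.858% of all reads in control mice and 0.711% to 0.814% in MOCA mice. To compare genes with each other, values were divided by the length of the longest protein-coding transcript in kb. On that scale Ces1c, the plasma esterase, was far ahead, at 2130 ± 216 in control and 1837 ± 93.4 in MOCA livers (mean ± SD, n = 4). It ranked 23 among 14592 genes with a known length. Its level per kb was 4.21 times that of the next gene, Ces3a (471 over all 8 mice), and in each of the 8 mice it was the higher of the pair.

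Below Ces1c the order, taken from the mean over both groups, ran through small steps. Ces3a and Ces1d (460 per kb), the triglyceride hydrolase also called TGH, could not be ranked, since Ces3a was the higher in only 3 of 8 mice. Ces1b (352 per kb) and Ces1f (285 per kb), the latter a relative of TGH known as TGH-2, followed. Within each mouse Ces1d was above Ces1b and Ces1b above Ces1f, though the ranges over mice overlapped. Ces2a came next at 244 per kb and lay below Ces1f in 7 of 8 mice. Ces2e (118 per kb) was below Ces2a in all 8 mice, with no overlap, but the distance differed by group: the mean of Ces2a was 2.76 times that of Ces2e in control and 1.61 times in MOCA livers. Ces1e (85.4 per kb), which as egasyn holds the lysosomal enzyme beta-glucuronidase in the endoplasmic reticulum, and Ces1g (82.4 per kb), a hydrolase that limits triglyceride in the liver, had close means. Their order differed by group, with Ces1e the higher in all 4 control mice and Ces1g the higher in all 4 MOCA mice. Per kb Ces2e was above Ces1e in 4 of 4 MOCA mice but in only 2 of 4 control mice. That order depended on the transcript lengths used (2699 and 2073 bases). Before division by length Ces2e was above Ces1e in every mouse. Ces2c was lowest at 10.04 per kb.

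**Figure D1:**
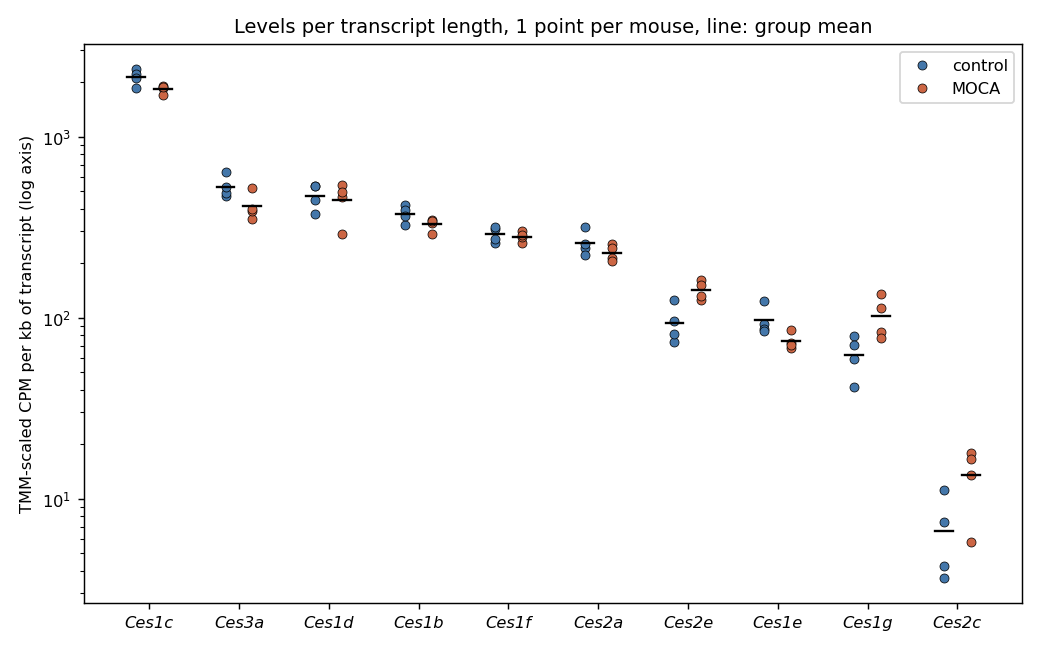
Level per kb of transcript (TMM-scaled CPM per kb, log axis) of the 10 carboxylesterase genes, ordered by their mean over 8 mice; each point is a mouse and each line a group mean. Ces1c stands apart at the top (1983 over all mice) and Ces2c at the bottom (10.04), and the genes from Ces3a to Ces2a lie between 471 and 244.

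None of the 10 genes passed the test for a difference between MOCA and control livers (limma, with p-values adjusted over all tested genes by Benjamini-Hochberg and a threshold of 0.05). Over all genes 0.666% were called, and a count of 0 among 10 is near that background. An unadjusted p under 0.05 was found for 5 of the 10, against 17.5% of all tested genes; edgeR called 0 of them and DESeq2 called 2, where these tools called 0.675% and 3.61% of all genes. The groups overlapped in all 10 genes, while 10.5% of tested genes had groups that did not overlap. The log2 fold change was above 0 in 3 (Ces1g, Ces2c and Ces2e) and below 0 in 7, with a median of -0.14 beside 0.01 for all tested genes. Of the 7, Ces1f turned positive (0.01) with columns scaled to equal sums; no other sign depended on the scaling.

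Ces2e, an esterase of the second cluster (chr8:104926260-104934672), had the smallest p of the 10. Its values were 259, 337, 198 and 219 in control 1 to 4, and 433, 336, 356 and 408 in MOCA 1 to 4. In 3 MOCA mice the value was above every control, and MOCA 2 was level with the highest control, control 2. The means were 253 ± 61.1 and 383 ± 44.9, a ratio of 1.52 and a log2 fold change on the log2(value + 1) scale of 0.62 (SE 0.15, 95% interval 0.30 to 0.94, limma adjusted p = 0.0805). This difference was called by DESeq2 (adjusted p = 0.00613), with columns scaled to equal sums (limma adjusted p = 0.0384) and without control 2 (log2 fold change 0.77, limma adjusted p = 0.0284). It was not called by edgeR (adjusted p = 0.0901) or in the other 7 fits that left out a mouse.

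Ces1g (chr8:93302369-93337209) had values of 141, 188, 168 and 98.9 in control mice and 322, 199, 185 and 271 in MOCA mice. MOCA 1 and MOCA 4 were well above the controls, and MOCA 2 and MOCA 3 were close to the highest of them. The means were 149 ± 38.6 and 244 ± 64.3, a log2 fold change of 0.71 (SE 0.21, 95% interval 0.25 to 1.17, limma adjusted p = 0.128). DESeq2 called it (adjusted p = 0.0176) and edgeR did not (adjusted p = 0.129).

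Ces2c (chr8:104847068-104854483) had the highest fold and the lowest reads, 117 to 555 per library. Control mice had 8.37, 22.1, 7.22 and 14.6, and MOCA mice 35.3, 11.4, 26.7 and 32.4. MOCA 2 lay within the control range and the other 3 MOCA mice above it. The log2 fold change was 0.98 with a wide 95% interval of 0.18 to 1.78 (limma adjusted p = 0.209). Ces2d-ps, the neighbouring pseudogene that shares windows with it, was below the level for testing, at 0, 3, 2 and 4 reads in control and 8, 5, 8 and 14 reads in MOCA mice. With so few reads, and with those shared windows, the part of either gene in the other's reads was not tested.

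Among the genes with lower means, Ces1e (chr8:93201218-93229631) had the smallest p. Control mice had 192, 257, 179 and 175, and MOCA mice 177, 141, 151 and 146. The ranges overlapped only through MOCA 1, which was above control 4. The log2 fold change was -0.37 (SE 0.12, 95% interval -0.63 to -0.11, limma adjusted p = 0.162). Gusb, the beta-glucuronidase that egasyn binds, was 26.7 ± 1.87 and 27.4 ± 2.66 (log2 fold change 0.03, limma adjusted p = 0.9).

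Ces3a (chr8:105048576-105061928), a hydrolase of the endoplasmic reticulum, had 961, 994, 1071 and 1297 in control and 717, 794, 1062 and 813 in MOCA mice. MOCA 3 lay within the control range and the other 3 below it. The log2 fold change was -0.36 (SE 0.13, limma adjusted p = 0.2). Its close copy Ces3b had 284, 301, 213 and 279 in control and 190, 205, 256 and 202 in MOCA mice (log2 fold change -0.33, limma adjusted p = 0.196). Here too MOCA 3 was the highest MOCA mouse, whereas control 3, which was within the range for Ces3a, was the lowest control.

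Ces1c (chr8:93099015-93131283) had 3373, 4298, 4067 and 3833 in control and 3496, 3376, 3112 and 3444 in MOCA mice, with control 1 as low as the treated mice. Its log2 fold change was -0.21 (95% interval -0.44 to 0.02, limma adjusted p = 0.335). Ces1b (chr8:93056725-93080017) gave nearly the same picture, with 634, 826, 769 and 717 in control and 682, 651, 571 and 674 in MOCA mice (-0.19, interval -0.40 to 0.02, limma adjusted p = 0.339). The hepatocyte marker sum was lower in MOCA mice as well, as given above, and its part in these lower values was not tested.

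Ces1d (chr8:93166072-93197804) had 750, 1067, 1074 and 894 in control and 1080, 924, 584 and 997 in MOCA mice, so MOCA 3 was the lowest of all 8 while MOCA 1 was the highest. The log2 fold change was -0.10 (95% interval -0.50 to 0.30, limma adjusted p = 0.823), and without MOCA 3 it was 0.09 (limma adjusted p = 0.769). Without control 1 it was -0.21. Ces1f (chr8:93256236-93279766) lay between 498 and 613 in control and between 496 and 577 in MOCA mice. Its interval of -0.23 to 0.15 around -0.04 (limma adjusted p = 0.836) was the narrowest of the 10, and its log2 fold change ran from -0.10 without control 1 to 0.0024 without control 4. Ces2a (chr8:104734003-104741634), a drug-hydrolysing enzyme, was 436 to 622 in control and 401 to 499 in MOCA mice (log2 fold change -0.17, 95% interval -0.42 to 0.08, limma adjusted p = 0.463). Without control 2 its log2 fold change was -0.07.

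**Figure D2:**
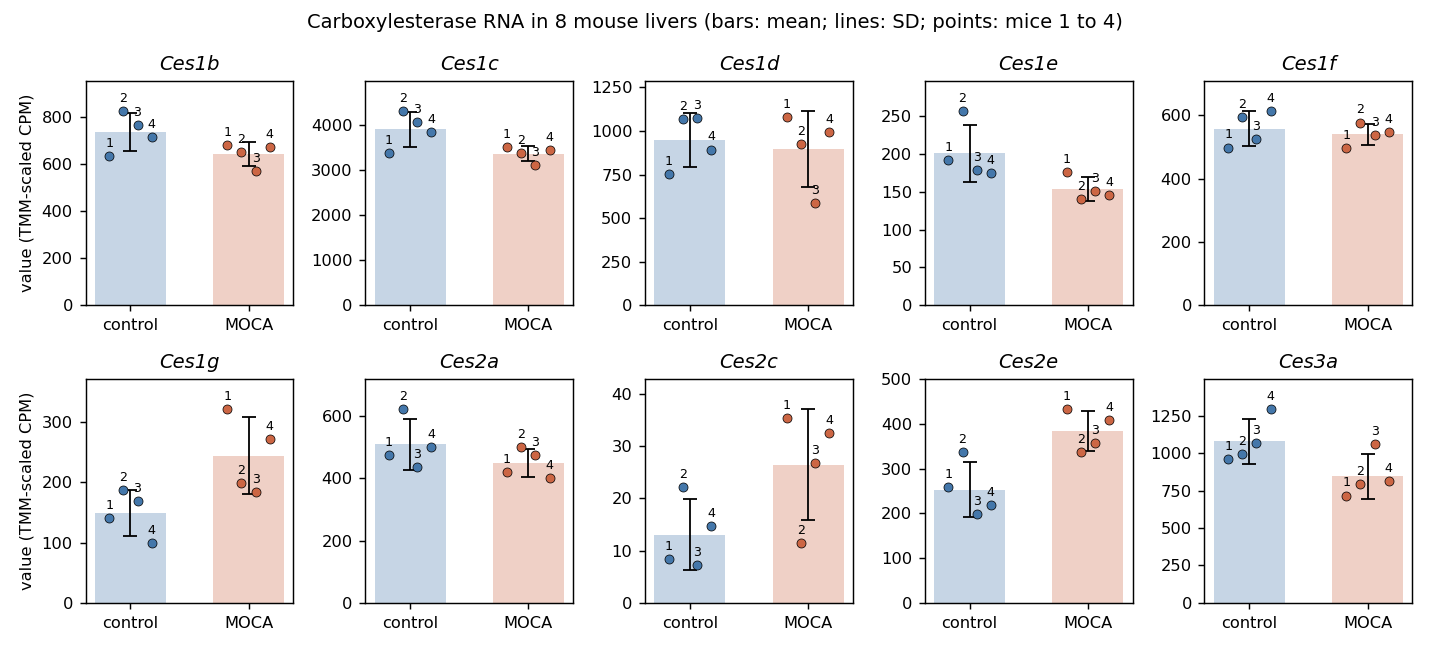
Value in TMM-scaled CPM of each carboxylesterase gene in every mouse; bars are means of 4 mice, lines are SD and numbered points are mice 1 to 4 of each group. Ces1g, Ces2c and Ces2e have higher MOCA means (244, 26.5 and 383 against 149, 13.1 and 253), and in all 10 panels the groups overlap.

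**Figure D3:**
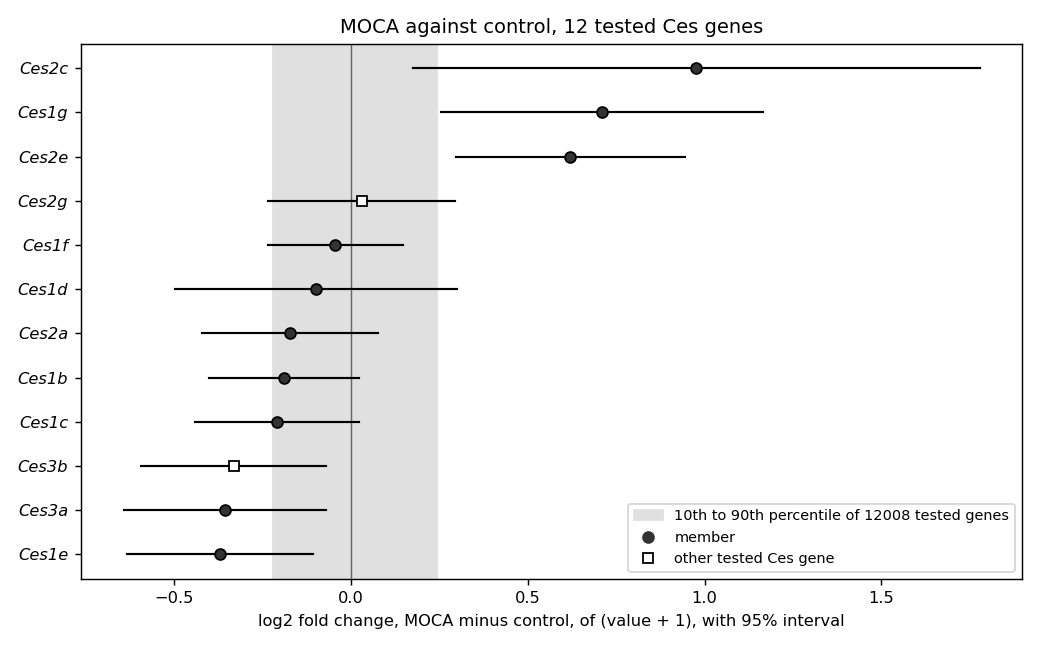
Log2 fold change between MOCA and control means of log2(value + 1), with 95% interval, for 12 tested Ces genes (circles: the 10 genes described; squares: Ces2g and Ces3b); the grey band spans the 10th to 90th percentile of all tested genes. The intervals of Ces2c, Ces1g and Ces2e lie above 0, those of Ces1e, Ces3a and Ces3b below 0, and the others include 0. Each interval is for a single gene and is not adjusted over all tested genes. None of the 12 genes was called by limma.

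Fold changes of both signs were found within each cluster. In the second cluster the summed value of Ces2a, Ces2c and Ces2e was 774 ± 145 in control and 858 ± 20.7 in MOCA livers, while the balance within it differed. The ratio of Ces2e to Ces2a per kb was 0.395, 0.393, 0.329 and 0.32 in control and 0.751, 0.490, 0.546 and 0.739 in MOCA mice. All 4 MOCA ratios were above all 4 control ratios. Ces2g, another gene of that cluster, had means of 57.01 ± 11.05 (control) and 57.5 ± 3.40 (MOCA), a log2 fold change of 0.03 (95% interval -0.23 to 0.29, limma adjusted p = 0.924). Its ratio to Ces2e per kb was 0.197 to 0.228 in control and 0.126 to 0.151 in MOCA mice, again without overlap.

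In the first cluster, Ces1g over Ces1e per kb was 0.640, 0.636, 0.816 and 0.491 in control and 1.58, 1.23, 1.06 and 1.62 in MOCA mice, so Ces1g was the lower of the pair in every control and the higher in every treated mouse. By contrast Ces1b over Ces1c per kb stayed between 0.171 and 0.182 over all 8 mice (0.176 ± 0.00210 in control and 0.178 ± 0.00533 in MOCA). Other computed ratios per kb differed in this respect. Ces2c over Ces2e overlapped between groups (0.0443 to 0.0914 in control, 0.0465 to 0.112 in MOCA). So did Ces3b over Ces3a (0.170 to 0.258 and 0.205 to 0.225). Ces1g over Ces1d did not (0.0929 to 0.158 and 0.181 to 0.265). All these ratios were picked after the values were seen. They are given without a test and without a background from other gene pairs.

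**Figure D4:**
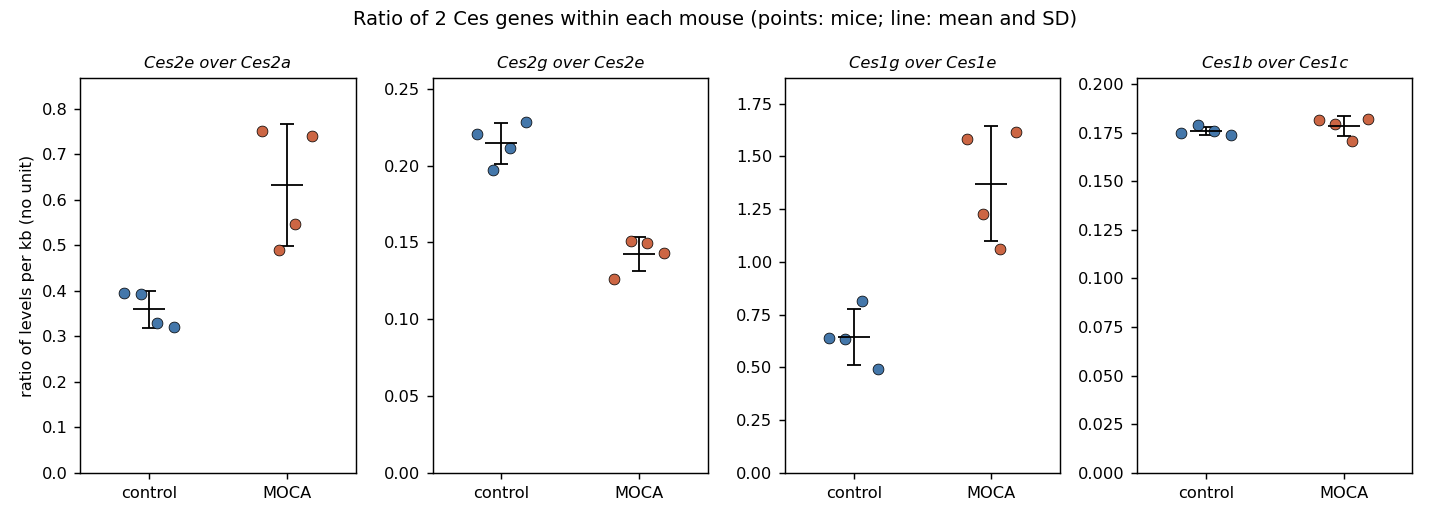
Ratio of the levels per kb of 4 pairs of Ces genes in each mouse, picked after the values were seen. Points are mice, lines are the mean and SD of 4. Ces2e over Ces2a and Ces1g over Ces1e are higher in all 4 MOCA mice (0.490 to 0.751 and 1.06 to 1.62) and Ces2g over Ces2e is lower (0.126 to 0.151), while Ces1b over Ces1c lies between 0.171 and 0.182 in both groups.

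As shares of the family's summed level per kb, Ces1c took 49.4% ± 0.877 in control and 47.5% ± 0.331 in MOCA livers, and the lowest control share (48.4%) was above the highest MOCA share (47.8%). Ces2e took 2.18% ± 0.479 and 3.67% ± 0.328, and Ces1g 1.45% ± 0.328 and 2.63% ± 0.592. Neither of the latter overlapped between groups: the highest control shares were 2.62% and 1.66% and the lowest MOCA shares 3.23% and 2.13%. Thus the shares of 3 genes did not overlap between groups, and those of the other 7 did. As values, 0 of the 10 genes had groups without overlap. Shares within other gene sets were not computed, so this count has no background beside it. A share of a sum moves with the other genes in it, so these are descriptions of the balance and not tests of single genes.

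Within the groups, some of the genes varied alike from mouse to mouse. After removal of the group means from log2(value + 1), Pearson's r over the 8 mice was positive in 34 of 45 pairs, with a median of 0.32. Ces1b and Ces1c had the highest r (0.98), followed among the 10 by Ces1b with Ces1d (0.91), Ces1e with Ces2e (0.90) and Ces1c with Ces1d (0.83). The Ces1e and Ces2e pair spans the clusters and had opposite signs in the treatment comparison. Ces2g also went with Ces2e (0.93). Ces3a went against Ces1g (-0.77) and Ces1d (-0.62). The values of a mouse share 1 library, and Ces1b and Ces1c also share read windows. No r was computed over all pairs of genes as a background, so the correlations are given as a description.

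**Figure D5:**
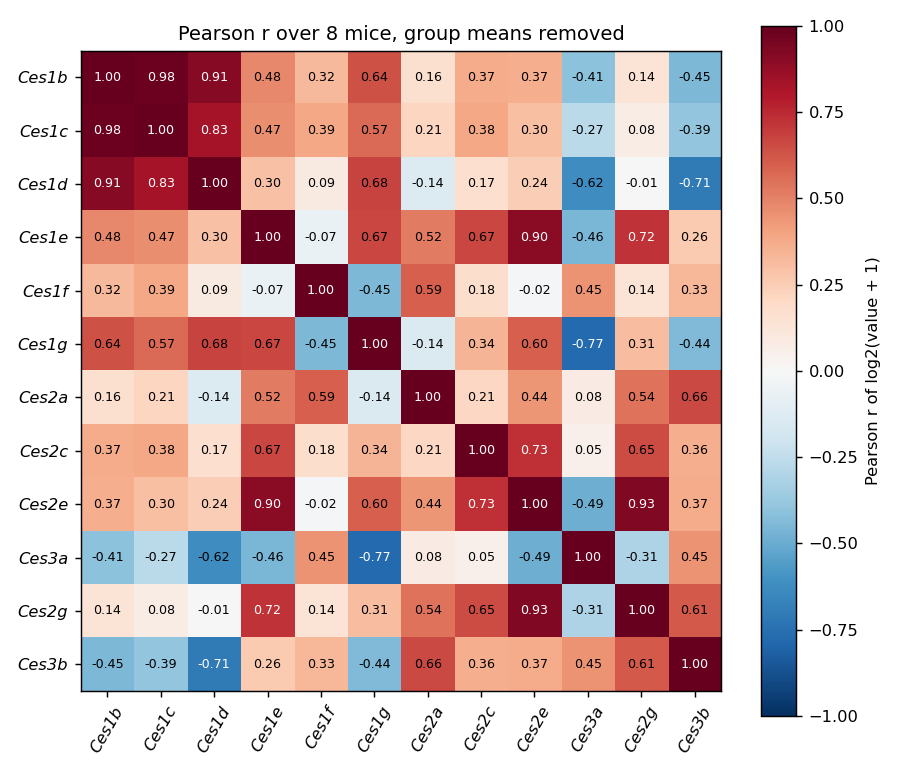
Pearson's r of log2(value + 1) between Ces genes over 8 mice after removal of the control and MOCA means (colour scale from -1 to 1). Ces1b, Ces1c and Ces1d form a block with r of 0.83 to 0.98, and Ces3a is negative with most Ces1 genes, down to -0.77 with Ces1g.

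Outside the family, the 3 genes most like Ces2e by the same measure, picked as the highest of 9262 genes with a mean of at least 5, were Gatb (0.99), a mitochondrial amidotransferase subunit, Cox10 (0.97), which acts in heme A synthesis, and Galnt1 (0.96), which starts O-glycosylation. Their log2 fold changes were 0.11, -0.05 and 0.05. Those most like Ces1c were the potassium channel Kcnk5 (0.99), the carbonyl reductase Cbr1 (0.98) and the sulfotransferase Sult1d1 (0.98), with log2 fold changes of -0.32, 0.08 and 0.10. None of the 6 was called, with limma adjusted p from 0.226 to 0.831.

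Of the other Ces genes, 5 were below the level for testing, with 0 to 20 reads per library (Ces1a, Ces2b, Ces2d-ps, Ces2h and Ces4a). Neither Ces2g nor Ces3b was called by limma, edgeR or DESeq2, and 1 of these 2 had an unadjusted p under 0.05. No tested gene outside the family lies within either cluster. Within 250 kb of the clusters 2 and 15 other genes were tested. None of these was called by limma, edgeR or DESeq2. An unadjusted p under 0.05 was found for 0 and 2 of them, and their median log2 fold changes were 0.06 and -0.02.

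Other hydrolases of esters, lipids and epoxides in the liver held no call by limma among 28 tested genes; edgeR called 0 and DESeq2 1, and 6 had an unadjusted p under 0.05. Their log2 fold changes were above 0 in 12 and below 0 in 16, with a median of -0.06. Ephx1, the microsomal epoxide hydrolase, came closest. It had 547, 691, 558 and 572 in control and 845, 716, 800 and 785 in MOCA mice, without overlap (log2 fold change 0.41, SE 0.09, limma adjusted p = 0.0661). DESeq2 called it (adjusted p = 0.00218), and edgeR did not (adjusted p = 0.0676). Next by p were the lipid droplet proteins and lipases Pnpla3 (2.70 ± 0.225 and 4.66 ± 1.74), Abhd5 (23.1 ± 2.39 and 27.1 ± 0.818) and Pnpla2 (80.3 ± 2.99 and 67.6 ± 10.1), with limma adjusted p from 0.172 to 0.212.

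In triglyceride storage and lipoprotein assembly, where the Ces1 hydrolases act, none of 16 tested genes was called by limma; edgeR called 0 and DESeq2 3, and 4 had an unadjusted p under 0.05. Soat2, which esterifies cholesterol, had 37.01, 33.6, 34.1 and 36.7 in control and 28.3, 27.98, 28.96 and 27.5 in MOCA mice. The groups did not overlap (log2 fold change -0.32, SE 0.07, limma adjusted p = 0.0619). Sar1b, a GTPase of vesicles that leave the endoplasmic reticulum, was 129 ± 16.6 and 164 ± 14.4 (0.35, limma adjusted p = 0.119). The chaperone Pdia4 was 213 ± 23.5 and 271 ± 49.7, and Dgat1, which makes triglyceride, 18.6 ± 2.43 and 15.1 ± 1.33 (limma adjusted p = 0.197 and 0.212).

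The retrieval receptors Kdelr1 and Kdelr2, which return proteins to the endoplasmic reticulum, were close to their control levels. Kdelr1 was 75.6 ± 5.32 and 75.3 ± 1.76, and Kdelr2 121 ± 9.50 and 127 ± 9.24 (limma adjusted p = 0.987 and 0.676). With Gusb these made 3 tested genes, of which 0 had an unadjusted p under 0.05 and 0 were called by edgeR or DESeq2. Of 16 nuclear receptors and other regulators none was called by limma, edgeR or DESeq2, while 2 had an unadjusted p under 0.05. The estrogen receptor Esr1 was 53.2 ± 2.87 and 64.2 ± 8.02 without overlap (0.26, limma adjusted p = 0.185). Nfe2l2, which encodes NRF2, was 89.04 ± 4.61 and 103 ± 13.4, the LXR gene Nr1h3 58.9 ± 5.93 and 65.8 ± 2.15, and the repressor Nr0b2 51.8 ± 22.0 and 66.3 ± 13.97. In the same mice Cyp2b10, a P450 gene driven by CAR, rose from 37.7 ± 11.3 to 142 ± 26.8 (1.92, SE 0.22, limma adjusted p = 0.00468), where the highest log2 fold change among the 10 carboxylesterase genes was 0.98 (Ces2c). Cyp2b10 is a single gene named for reference, and CAR activity and its part in the carboxylesterase values were not tested.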

How the data were processed

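Directional libraries were made from rRNA-depleted RNA of 8 livers, per the labels' protocols. The submitters' processing notes name mm10, Trimmomatic 0.38, RSEM, Bowtie2 and edgeR; their roles and the strand setting are not given in the sources used here. Values were deposited by the authors as 1 table of scaled signal per gene, with no column left unused (0). Dividing each column by its smallest value above 0 gave whole reads for 100% of values (tolerance 0.001), and TMM-scaled CPM recomputed from these whole reads with edgeR 4.0.16 matched the deposited values (largest relative difference 0).

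The main test was limma 3.58.1 (R 4.3.3) on log2(value + 1) with eBayes trend, MOCA against control, on genes of at least 1 in 4 or more libraries (12008; 3202 left out), called at Benjamini-Hochberg adjusted p under 0.05. On simulated data it recovered 48% of 1.5-fold, 93% of 2-fold and 96% of 3-fold changes, with 8, 12 and 12 false calls. A change near 1.5-fold can therefore go uncalled. Alternatives were pseudocounts, filters, scalings, eBayes options, weights per sample, the replicate number as a block, leaving out 1 mouse at a time, and edgeR and DESeq2 1.42.0 on the whole reads. The labels number each library as a separate mouse, and p-values measure the spread between these mice.

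The text names all 10 carboxylesterases and the other Ces genes. From every other list it names the called genes or up to 4 with the smallest p. It also names the 3 genes most alike to 2 carboxylesterases, and Cyp2b10 and Cyp2e1 for reference. Cell type lists are given by their sums, with Alb and Trf named for their part in the hepatocyte sum. The genes and lists were chosen with earlier results of these data known. Cyp2e1 was 5988 ± 301 and 5055 ± 518. Positions are from RefSeq (GRCm38.p6, the coordinates of mm10). Transcripts are from GENCODE M21, and coding sequences were aligned with Biopython 1.88.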

Additional observations from a re-analysis of the deposited data

How the results depend on the processing

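Over all genes 48 were called higher and 32 lower. The split was 131 and 38 with equal column sums, 45 and 51 with upper quartile scaling, 63 and 53 with robust eBayes, 10 and 3 at an adjusted p under 0.01, and 222 and 203 with DESeq2. Leaving out each mouse gave 21 to 42 higher and 8 to 35 lower. Of the carboxylesterase genes 0 were called higher, but 1 with equal column sums, 2 with DESeq2, and 0 to 1 without each mouse; 0 were called lower in every setting run. Of 210 values of the 10 genes under 21 alternatives each, 203 kept their direction and their side of the threshold, 4 passed it (Ces2e in 3 and Ces1g in 1, given above) and 3 changed sign: Ces1f with equal column sums (0.0087), and, when mice were left out, Ces1d without MOCA replicate 3 (range -0.207 to 0.0924) and Ces1f without control replicate 4 (range -0.0972 to 0.0024). The cause was not tested. With the replicate number as a block 20 genes were higher and 10 lower, and no carboxylesterase was called (Ces2e adjusted p = 0.114); same-numbered mice did not deviate together (correlations of -0.07, -0.0014, 0.04 and -0.04), so the numbers are not taken as pairs. Ces2c had 117 to 555 reads per library, and its coefficient of variation between mice was 52.3% in control and 40.3% in MOCA livers. The 5 Ces genes with at most 20 reads in any library were not tested.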
